A study of Mus musculus with 12 samples.

Results

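The genes described here are the 7 cyclin-dependent kinase (CDK) inhibitors of the mouse: Cdkn1a, Cdkn1b and Cdkn1c, which form the CIP/KIP family, and Cdkn2a, Cdkn2b, Cdkn2c and Cdkn2d, which form the INK4 family. They were chosen by family membership, and all 7 were among the 38924 gene IDs of the table. The 12 bulk RNA-seq libraries came from bone marrow of female wild-type C57Bl/6J mice, an inbred laboratory strain. They cover 4 libraries each of lymphoid-primed multipotent progenitors (LMPP; Lin- Sca1+ cKit+ CD150- CD34+ Flk2hi), common lymphoid progenitors (CLP; Lin- Sca1lo cKitlo IL7Ra+ Flk2+) and granulocyte-monocyte progenitors (GMP; Lin- Sca1- cKit+ CD150- CD34+ FcgR+). The titles give 2 batches, with 2 libraries of every type in each, without saying what a batch was. No group carries a mutation or a treatment in the labels; the age of the mice, the number of cells per library and whether animals were pooled are not given for the bulk libraries in the sources used here.

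CDK inhibitors are small proteins that hold back the kinases driving the cell cycle. INK4 proteins bind CDK4 and CDK6 and keep them from the D cyclins, whereas CIP/KIP proteins bind assembled cyclin-CDK complexes, above all those of CDK2. With CDK4, CDK6 and CDK2 held back, the pocket proteins such as RB stay unphosphorylated and keep E2F factors silent, and the cell stays in the first gap phase. In blood formation p57 and p27, the products of Cdkn1c and Cdkn1b, are known for holding stem cells in quiescence, p21, the product of Cdkn1a, for arrest after p53 activation, and p18, the product of Cdkn2c, for limiting stem cell divisions and B lineage growth.

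Values were given in TPM, a relative level corrected for transcript length, so that levels of different genes can be compared. Tests used limma on log2(TPM + 1) over all 12 libraries with batch as a term, 12718 genes that reached 1 TPM in 4 or more libraries entered the test, and those with an adjusted p under 0.05 are described as called. A difference is the first-named type minus the second on that scale, and its error is the standard error (SE). In bulk samples fewer cells of a type and less RNA per cell cannot be told apart. The labels do not tie the libraries to separate animals, and the p-values therefore reflect only how far these samples spread, which could be technical.

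The libraries carried their types' markers, but the CLP libraries of the batches stood apart. Summed TPM of 5 CLP markers was 606–849 in LMPP, 1096–2247 in CLP and 3.29–6.72 in GMP, and none of the 5 was listed at 0 in CLP. Summed TPM of 5 GMP markers was 963–1444 in LMPP, 151–1988 in CLP and 19898–22926 in GMP. Summed TPM of 6 LMPP markers was 712–964 in LMPP, 83.4–386 in CLP and 170–235 in GMP. Within CLP, the 5 CLP markers summed to 1096–1607 TPM in batch 2 and 2200–2247 TPM in batch 1. The 6 LMPP markers summed to 83.4–85.2 and 313–386 TPM in these batches. Flt3, the gene of the gate protein Flk2, averaged 12.94 TPM in CLP batch 2 and 142.2 TPM in CLP batch 1. Markers of other marrow cells were also higher in CLP batch 2: the 7 B lineage markers summed to 3843–4751 TPM in batch 2 and 30.2–702 TPM in batch 1, the 7 neutrophil markers to 1859–11453 and 12.3–156 TPM, and the 6 erythroid markers to 2460–13480 and 39.7–544 TPM. LMPP batch 2 replicate 1 also held 24668 TPM of neutrophil and 28300 TPM of erythroid markers. Markers of T and NK cells summed to 104–159 in LMPP, 45.8–93.2 in CLP and 470–826 TPM in GMP. Of these 5 genes Cd3g was listed at 0 in every GMP library. Cd3e, Il2rb and Klrb1c were each listed at 0 in some GMP libraries, and Nkg7 in none. The GMP sum is therefore no measure of T or NK cells. Sequencing depth is unknown, since TPM carries no read totals.

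Of the 7 genes, 4 (Cdkn1a, Cdkn1b, Cdkn2c and Cdkn2d) passed the filter on low values and were tested, and each was above 1 TPM in every library. The other 3 (Cdkn1c, Cdkn2a and Cdkn2b) were at or near 0 TPM in most libraries. The 7 genes summed to 95.8 ± 18.3 in LMPP, 219 ± 97.7 in CLP and 45.4 ± 7.11 TPM in GMP (SD, n = 4 each). Every CLP sum except that of batch 1 replicate 2 (111.17 TPM) lay above all LMPP sums, whose highest was 114.66 TPM, and every GMP sum lay below all others. Cdkn1a alone held 22.2–59.1% of the sum in LMPP, 49.0–69.3% in CLP and 21.5–49.5% in GMP. The CIP/KIP genes together held 40.2–76.5% in LMPP, 54.6–73.3% in CLP and 33.7–61.2% in GMP, so that the ranges overlapped.

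**Figure D1:**
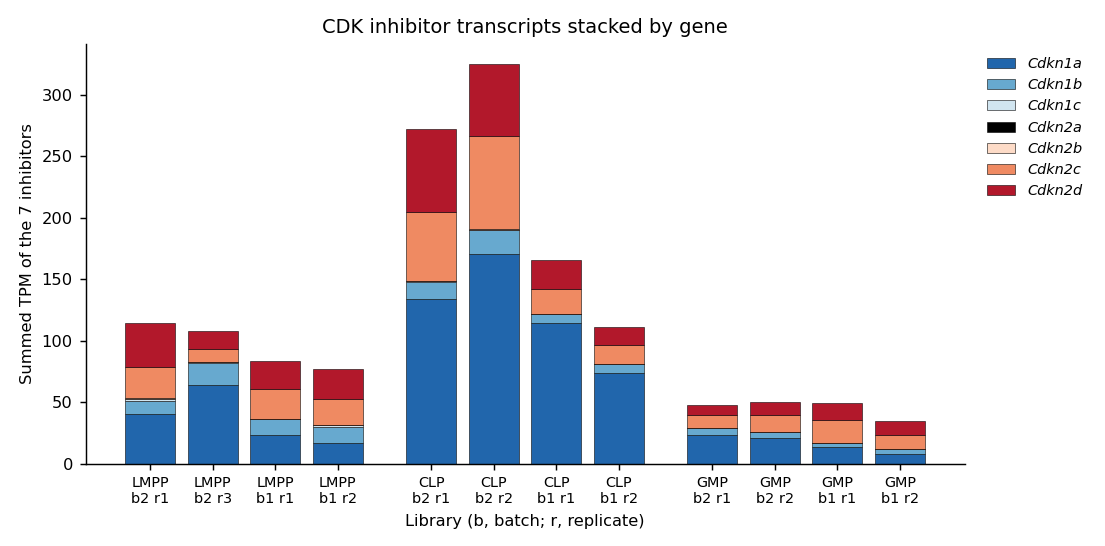
TPM of the 7 CDK inhibitor genes stacked for each library, with CIP/KIP genes in blue and INK4 genes in black, orange and red. The CLP bars reach 325.14 TPM and the GMP bars at most 50.06 TPM, and Cdkn1a is the largest block of every CLP bar.

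Cdkn1a encodes p21, a CIP/KIP inhibitor of CDK2 and CDK1 complexes and a target gene of p53. It lies on the plus strand of chromosome 17, at chr17:29090976-29100727 (mm10; gene ID ENSMUSG00000023067). The sequence upstream of each of its 2 RefSeq starts is shown because this gene differed in all 3 comparisons and because start 1 carries a match to the p53 element. Capitals mark the p53 element (2 adjacent repeats of 10 bases, with at most 1 mismatch in 20 bases) in start 1 and the GC boxes (GGGCGG) in start 2. The sequences are RefSeq GRCm38.p6 windows of 250 bases, read 5′ to 3′ on the gene's strand and cut to the bases outside annotated exons.
Cdkn1a start 1, chr17:29090729-29090975: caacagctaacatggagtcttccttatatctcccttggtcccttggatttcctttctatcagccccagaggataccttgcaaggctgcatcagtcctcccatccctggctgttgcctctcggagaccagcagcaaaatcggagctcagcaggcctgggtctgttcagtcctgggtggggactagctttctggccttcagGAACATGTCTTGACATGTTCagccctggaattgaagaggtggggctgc
Cdkn1a start 2, chr17:29093519-29093768: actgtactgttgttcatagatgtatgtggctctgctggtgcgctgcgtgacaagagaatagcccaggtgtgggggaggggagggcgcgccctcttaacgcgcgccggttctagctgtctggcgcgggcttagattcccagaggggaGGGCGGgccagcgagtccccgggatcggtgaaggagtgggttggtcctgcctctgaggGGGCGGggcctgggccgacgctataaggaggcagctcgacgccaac
The p53 element, looked for on either strand and chosen after the sequence was seen, was found in 25 of 32851 promoter windows of this length (0.0761%), and a GC box in 32.7%. A match is a description of the letters, not of binding.

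Cdkn1a was the most abundant CDK inhibitor transcript in CLP and the only one of the 4 tested that was called in all 3 comparisons of types. In LMPP it was at 40.47 and 63.81 TPM in batch 2 and 23.04 and 17.14 TPM in batch 1. In CLP it was at 133.62 and 170.38 TPM in batch 2 and 114.79 and 73.46 TPM in batch 1. In GMP it was at 23.5 and 20.85 TPM in batch 2 and 13.36 and 7.51 TPM in batch 1. All CLP libraries were above all LMPP and GMP libraries, and LMPP was above GMP within each batch, while LMPP batch 1 and GMP batch 2 overlapped. The means were 36.1 ± 21 in LMPP, 123 ± 40.3 in CLP and 16.3 ± 7.27 TPM in GMP (SD, n = 4 each). These levels stood at the percentiles 78.7, 94.2 and 63.3 of all tested genes in LMPP, CLP and GMP.

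On the log2 scale Cdkn1a was lower in LMPP than in CLP by a difference of -1.85 ± 0.23 (SE; limma, adjusted p = 0.000833). It was higher in LMPP than in GMP by 1.04 ± 0.23 (adjusted p = 0.00598) and higher in CLP than in GMP by 2.89 ± 0.23 (adjusted p = 7.16e-06). The differences of CLP from each other type were called in each batch fitted alone, at -1.55 for LMPP minus CLP in batch 2 (adjusted p = 0.0215) and -2.15 in batch 1 (adjusted p = 0.0148), and at 2.71 for CLP minus GMP in batch 2 (adjusted p = 0.00244) and 3.07 in batch 1 (adjusted p = 0.00107). LMPP minus GMP was called in batch 2 alone, at 1.16 (adjusted p = 0.0442), and not in batch 1 alone, at 0.92 (adjusted p = 0.0707), and it was not called without the batch term (adjusted p = 0.103).

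Cdkn1b encodes p27, a CIP/KIP inhibitor whose protein level is set to a large part by SCF-SKP2 ubiquitination, so that the transcript is only a part of its control. It lies at chr6:134920401-134925513 on the plus strand (ENSMUSG00000003031). Its upstream window is shown because GMP differed from both other types; capitals mark 2 CCAAT boxes and 1 GC box (GGGCGG), motifs found in 33.8% and 32.7% of windows.
Cdkn1b, chr6:134920151-134920400: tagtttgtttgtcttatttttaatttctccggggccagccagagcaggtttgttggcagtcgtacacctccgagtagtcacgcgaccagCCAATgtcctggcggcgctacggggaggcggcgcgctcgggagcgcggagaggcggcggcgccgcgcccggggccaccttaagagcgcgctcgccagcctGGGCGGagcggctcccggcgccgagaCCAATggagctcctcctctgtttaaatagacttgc

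Cdkn1b was lower in GMP than in both LMPP and CLP. In LMPP it was at 10.40 and 18.11 TPM in batch 2 and 12.91 and 12.57 TPM in batch 1. In CLP it was at 14.05 and 19.91 TPM in batch 2 and 6.62 and 7.23 TPM in batch 1. In GMP it was at 5.60 and 5.21 TPM in batch 2 and 3.19 and 4.58 TPM in batch 1. Every GMP library was below every LMPP and CLP library, and LMPP and CLP overlapped. The means were 13.5 ± 3.27 in LMPP, 12 ± 6.28 in CLP and 4.64 ± 1.06 TPM in GMP (SD, n = 4 each). LMPP exceeded GMP by 1.36 ± 0.26 on the log2 scale (SE; limma, adjusted p = 0.00229) and CLP exceeded GMP by 1.09 ± 0.26 (adjusted p = 0.00863). LMPP minus CLP was 0.27 ± 0.26 (adjusted p = 0.536), with a 95% interval of -0.289 to 0.819. LMPP minus GMP was 1.21 in batch 2 alone (adjusted p = 0.0818) and 1.51 in batch 1 alone (adjusted p = 0.0047). CLP minus GMP was 1.47 in batch 2 alone (adjusted p = 0.0415) and 0.71 in batch 1 alone (adjusted p = 0.0572), and LMPP minus CLP was -0.27 and 0.80 (adjusted p = 0.648 and 0.0672).

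The balance of Cdkn1a and Cdkn1b also varied: the ratio of Cdkn1a to Cdkn1b in TPM was 1.36–3.89 in LMPP, 8.56–17.3 in CLP and 1.64–4.2 in GMP. The CLP range lay above the other ranges, and LMPP and GMP overlapped.

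Cdkn1c encodes p57, the third CIP/KIP protein, and is an imprinted gene at chr7:143458339-143461050 on the minus strand (ENSMUSG00000037664). It was at 2.04 and 0.71 TPM in LMPP batch 2 and 0.04 and 1.33 TPM in LMPP batch 1. In CLP it was at 1.15 and 0.17 TPM in batch 2 and 0 and 0.31 TPM in batch 1. In GMP it was at 0.07 TPM in batch 1 replicate 2 and listed at 0 in the other 3 libraries. The gene reached 1 TPM in 3 libraries, 2 of them LMPP and 1 CLP, and so was not tested. Fitted without the filter, LMPP minus GMP was 0.89 on the log2 scale (limma, adjusted p = 0.0728), LMPP minus CLP was 0.48 (adjusted p = 0.412) and CLP minus GMP was 0.41 (adjusted p = 0.473), and none was called. With TPM rescaled without mitochondrial and ribosomal RNA, Cdkn1c passed the filter and was called higher in LMPP than in GMP. No GMP library was above 0.07 TPM as deposited, so the gene passed only through libraries of the other types. That call is therefore no support for a difference.

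The 2 neighbouring INK4 genes of chromosome 4 were at or near 0. Cdkn2a, at chr4:89274471-89294653 on the minus strand (ENSMUSG00000044303), encodes p16 and, from another reading frame, the p53 activator p19ARF; it was listed at 0 in all 12 libraries. The table is by gene, so the 2 products could not have been told apart. Cdkn2b, at chr4:89306299-89311039 on the minus strand (ENSMUSG00000073802), encodes p15, a target of TGF-beta signalling. It was at 0.13 TPM in LMPP batch 2 replicate 1, and in CLP at 0.61 TPM in batch 2 replicate 2 and 0.16 TPM in batch 1 replicate 2, and was listed at 0 in the other 9 libraries. Without the filter, the Cdkn2b differences were -0.18 for LMPP minus CLP (limma, adjusted p = 0.478), 0.04 for LMPP minus GMP (adjusted p = 0.873) and 0.22 for CLP minus GMP (adjusted p = 0.319).

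Cdkn2c and Cdkn2d carried nearly all of the INK4 transcript. Cdkn2c encodes p18 and lies at chr4:109660876-109667189 on the minus strand (ENSMUSG00000028551). Cdkn2d encodes p19INK4d and lies at chr9:21288410-21291407 on the minus strand (ENSMUSG00000096472). For each gene the bases before a RefSeq start, outside annotated exons, are shown because the transcripts of both genes moved together. The Cdkn2c window precedes start 2 and lies within the gene. The window of Cdkn2c start 1 fell wholly in annotated exons and is not shown. Capitals in Cdkn2d mark an inverted CCAAT box, and Cdkn2c start 2 held none of the 5 motifs searched. Beside the GC box, the CCAAT box and the p53 element these were the TATA box (TATAAA, in 12.4% of windows) and an E2F site (TTTCCCGC, TTTCGCGC, TTTGCCGC or TTTGGCGC, in 1.86%), each on either strand.
Cdkn2c start 2, chr4:109665373-109665609: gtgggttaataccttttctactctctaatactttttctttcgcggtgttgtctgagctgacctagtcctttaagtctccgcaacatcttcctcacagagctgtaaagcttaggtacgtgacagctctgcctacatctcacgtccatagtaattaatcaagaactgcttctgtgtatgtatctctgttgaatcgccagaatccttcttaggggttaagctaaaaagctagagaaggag
Cdkn2d, chr9:21291408-21291459: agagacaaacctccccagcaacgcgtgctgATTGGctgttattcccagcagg
With 52 bases left for Cdkn2d, fewer motifs can be seen than in a full window.

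Cdkn2c was at 25.89 and 10.71 TPM in LMPP batch 2 and 24.58 and 21.61 TPM in LMPP batch 1. In CLP it was at 56.14 and 75.47 TPM in batch 2 and 20.79 and 15.63 TPM in batch 1. In GMP it was at 10.38 and 13.56 TPM in batch 2 and 18.88 and 11.39 TPM in batch 1. The CLP libraries of batch 2 were above all others, and the remaining libraries of the 3 types overlapped. CLP minus GMP was 1.32 ± 0.44 (SE; limma, adjusted p = 0.0458), a call lost in 8 of 12 refits that left out 1 library. LMPP minus CLP was -0.78 ± 0.44 (adjusted p = 0.275; 95% interval -1.73 to 0.17), and LMPP minus GMP was 0.54 ± 0.44 (adjusted p = 0.378; 95% interval -0.41 to 1.49), with 0.46 in batch 2 alone (adjusted p = 0.498) and 0.62 in batch 1 alone (adjusted p = 0.121).

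Cdkn2d was at 35.73 and 14.68 TPM in LMPP batch 2 and 22.94 and 24.53 TPM in LMPP batch 1. In CLP it was at 67.54 and 58.60 TPM in batch 2 and 23.33 and 14.38 TPM in batch 1. In GMP it was at 8.04 and 10.44 TPM in batch 2 and 13.74 and 11.30 TPM in batch 1. Every GMP library was below every LMPP and CLP library, and LMPP and CLP overlapped. CLP minus GMP was 1.59 ± 0.41 (SE; limma, adjusted p = 0.014), and was not called without GMP batch 2 replicate 1 (1.37, adjusted p = 0.0519). LMPP minus GMP was 1.06 ± 0.41 (adjusted p = 0.0697; 95% interval 0.17 to 1.94), with 1.24 in batch 2 alone (adjusted p = 0.107) and 0.88 in batch 1 alone (adjusted p = 0.037), and LMPP minus CLP was -0.53 ± 0.41 (adjusted p = 0.43; 95% interval -1.42 to 0.35).

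**Figure D2:**
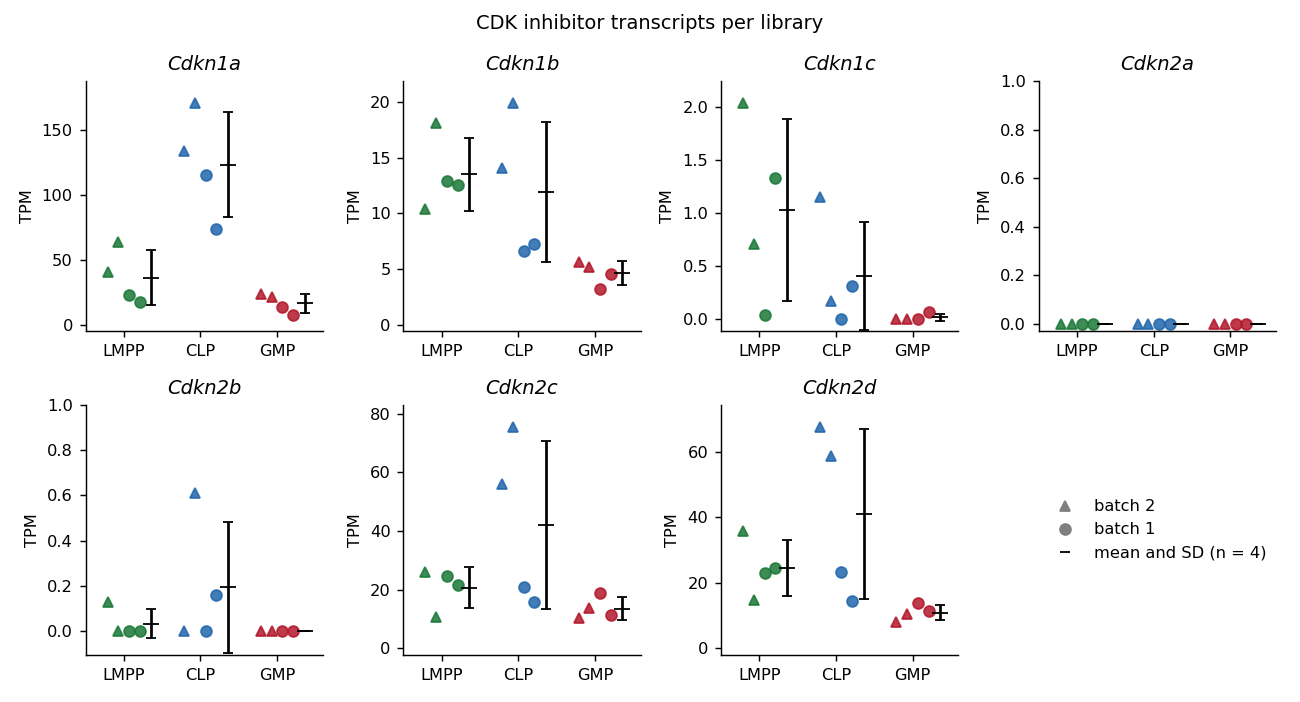
TPM of each of the 7 genes in each library, by type, with triangles for batch 2, circles for batch 1 and a bar for the mean with its SD (n = 4). Cdkn1a is highest in all 4 CLP libraries, Cdkn2c and Cdkn2d in the 2 CLP libraries of batch 2, and Cdkn2a is at 0 throughout.

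Over the 12 libraries Cdkn2c and Cdkn2d were the most alike pair of the 4 tested genes, with a Pearson r of 0.942 and a Spearman rho of 0.888 in log2(TPM + 1). The other 5 pairs had Pearson r between 0.566 and 0.69. These correlations mix types and batches, so they describe the pattern only.

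Set against all tested genes, the counts of called inhibitors read as follows. For LMPP minus CLP, Cdkn1a was lower and the other 3 tested genes were not called, while 10% of all tested genes were called (2.80% lower). For LMPP minus GMP, Cdkn1a and Cdkn1b were higher and Cdkn2c and Cdkn2d were not called, against a background of 28.9% called (21.3% higher). For CLP minus GMP, all 4 tested genes were higher, against 23.9% called (13.9% higher). The median difference of all tested genes was 0.17 for LMPP minus CLP, 0.24 for LMPP minus GMP and 0.09 for CLP minus GMP. The 3 comparisons share libraries, so their counts are not independent of each other. Without both CLP libraries of batch 2, Cdkn1a remained the only gene of the 4 called for CLP minus GMP.

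**Figure D3:**
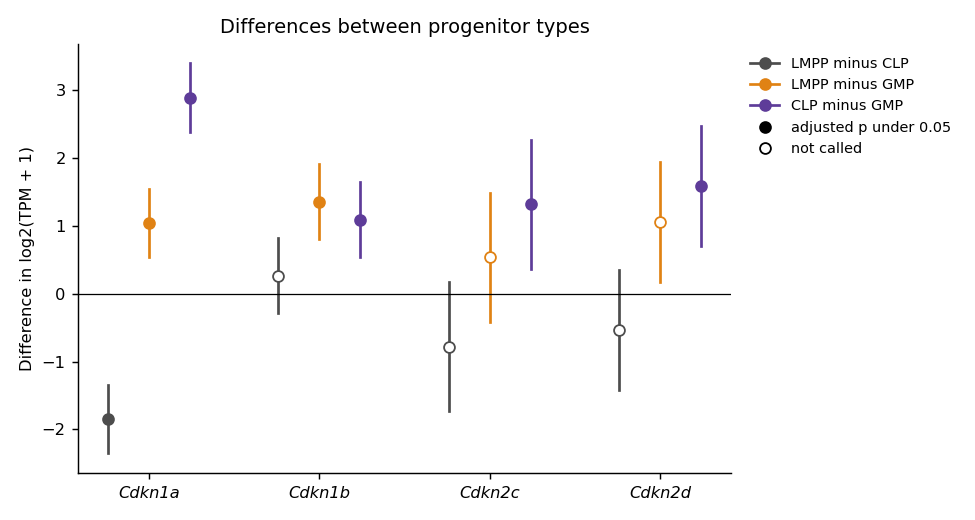
Differences in log2(TPM + 1) between the types for the 4 tested genes, with 95% intervals; filled points have an adjusted p under 0.05 and open points were not called. Cdkn1a has the lowest point (-1.85, LMPP minus CLP) and the highest (2.89, CLP minus GMP), and the intervals of Cdkn2c are the widest.

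In 2 of the interaction tests on Cdkn2c and Cdkn2d, the difference between CLP and another type differed by batch. For Cdkn2c, LMPP minus CLP was -1.90 in batch 2 alone (limma, adjusted p = 0.0426) and 0.34 in batch 1 alone (adjusted p = 0.432). The difference between the batches, tested as an interaction, was -2.23 ± 0.53 (SE; adjusted p = 0.0309). For Cdkn2d the same interaction was -1.77 (adjusted p = 0.0603) and was not called. For CLP minus GMP, Cdkn2d was at 2.65 in batch 2 alone (adjusted p = 0.0122) and 0.52 in batch 1 alone (adjusted p = 0.168), with an interaction of 2.13 ± 0.51 (adjusted p = 0.042). Cdkn2c was at 2.36 in batch 2 alone (adjusted p = 0.0176) and 0.28 in batch 1 alone (adjusted p = 0.475), with an interaction of 2.08 (adjusted p = 0.0507). Among all tested genes the interaction was called for 8.58% in LMPP minus CLP (5.90% lower) and for 5.48% in CLP minus GMP (3.02% higher). Each of the 2 called interactions was lost in 8 of 12 refits that left out 1 library.

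The interaction was not called for Cdkn1a or Cdkn1b in either comparison. For LMPP minus CLP it was 0.60 for Cdkn1a (limma, adjusted p = 0.431) and -1.06 for Cdkn1b (adjusted p = 0.14), and for CLP minus GMP it was -0.36 (adjusted p = 0.699) and 0.76 (adjusted p = 0.324). For LMPP minus GMP none of the 4 genes was called, with adjusted p between 0.87 and 0.958, where limma called 2 genes in all (0.0157%) and 1247 had an unadjusted p under 0.05.

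**Figure D4:**
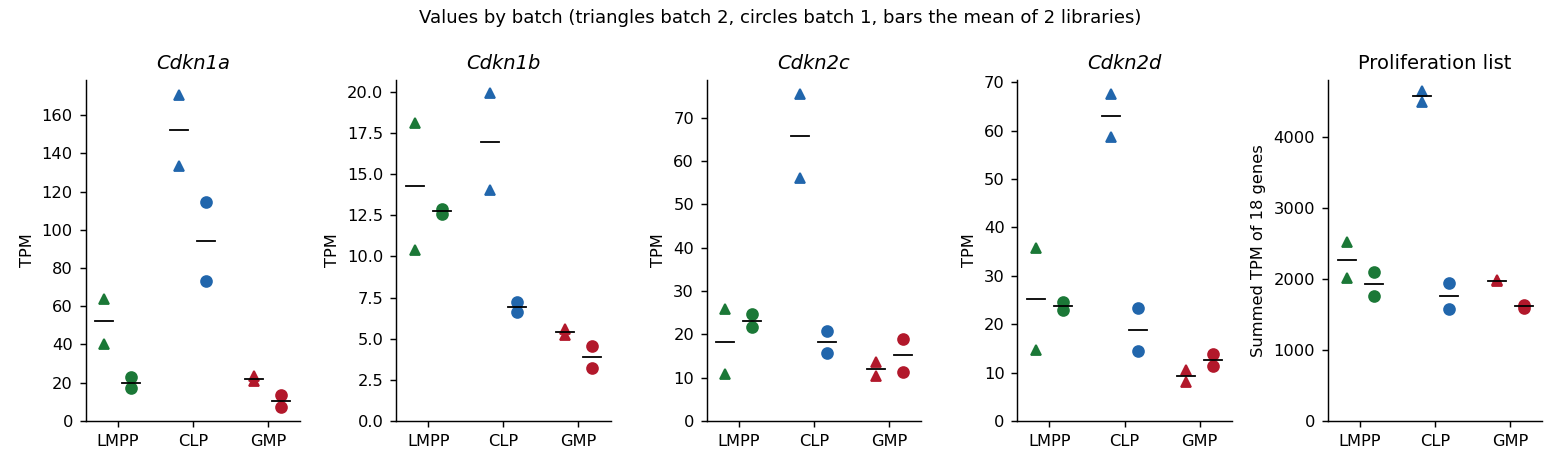
TPM of the 4 tested genes and summed TPM of 18 proliferation genes, by type and batch, with triangles for batch 2, circles for batch 1 and bars for the mean of 2 libraries. CLP batch 2 stands above CLP batch 1 in each panel, with means of 65.8 and 18.2 TPM for Cdkn2c and 63.1 and 18.9 TPM for Cdkn2d.

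Within CLP, 3 of the 4 tested inhibitors were higher in batch 2 than in batch 1. Cdkn2c averaged 65.8 TPM in batch 2 and 18.2 TPM in batch 1, a difference of 1.80 ± 0.38 (SE; limma, adjusted p = 0.00532). Cdkn2d averaged 63.1 and 18.9 TPM (1.72 ± 0.36, adjusted p = 0.00538), and Cdkn1b 17.0 and 6.93 TPM (1.16 ± 0.29, adjusted p = 0.013). Cdkn1a averaged 152 TPM in batch 2 and 94.1 TPM in batch 1 (0.71, adjusted p = 0.115) and was not called. The background was wide, with 32.0% of all tested genes called and 21.3% higher. Without CLP batch 1 replicate 2, which leaves batch 1 a single library assumed to vary like the others, 1 of the 4 was called, Cdkn2c. Cdkn1b was also not called without CLP batch 2 replicate 2 (adjusted p = 0.0629) or CLP batch 1 replicate 1 (adjusted p = 0.0636).

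In LMPP, Cdkn1a was higher in batch 2, at a mean of 52.1 TPM against 20.1 TPM in batch 1 (1.31, limma adjusted p = 0.0462), where 4.61% of genes were called (2.19% higher). In the same libraries the neutrophil markers summed to 1729–24668 TPM in batch 2 and 27.4–206 TPM in batch 1, with 4 of 7 called higher, and the erythroid markers to 1179–28300 and 186–582 TPM, with none of 6 called. Mitochondrial and ribosomal RNA held 24.96% and 31.42% of the TPM in LMPP batch 2 and 18% and 19.92% in LMPP batch 1. The part of these in the Cdkn1a difference was not tested. In GMP Cdkn1a averaged 22.2 TPM in batch 2 and 10.4 TPM in batch 1 (1.07, adjusted p = 0.0704), where 8.22% were called, and no inhibitor was.

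Markers of dividing cells and of B lineage, neutrophil and erythroid cells were also higher in CLP batch 2. There Cdkn1b, Cdkn2c and Cdkn2d were called higher, and Cdkn1a was not. Of 18 proliferation genes 14 were higher in CLP batch 2, where 21.3% of all tested genes were. Their median difference was 1.45 against 0.13 for all tested genes, and their summed TPM was 4498–4654 in batch 2 and 1579–1940 in batch 1. Mki67, a nuclear protein of cycling cells, averaged 675.4 TPM in batch 2 and 139.1 TPM in batch 1 (2.27, limma adjusted p = 2.15e-05). The 7 B lineage markers and the 7 neutrophil markers were all called higher in batch 2, and 5 of 6 erythroid markers were. Ly6g, a defining neutrophil marker, was listed at 0 in CLP batch 1 and in all GMP libraries. The part of these cells and of cycling in the inhibitor values was not tested. For LMPP batch 2 replicate 1, the library with the highest neutrophil and erythroid sums, Cdkn2c and Cdkn2d were at 25.89 and 35.73 TPM. In LMPP batch 2 replicate 3 they were at 10.71 and 14.68 TPM. Cdkn1a and Cdkn1b went the other way, at 40.47 and 10.40 TPM in replicate 1 and 63.81 and 18.11 TPM in replicate 3. In LMPP batch 1 the neutrophil markers summed to 27.4–206 TPM. There Cdkn2c was at 24.58 and 21.61 TPM and Cdkn2d at 22.94 and 24.53 TPM.

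**Figure D5:**
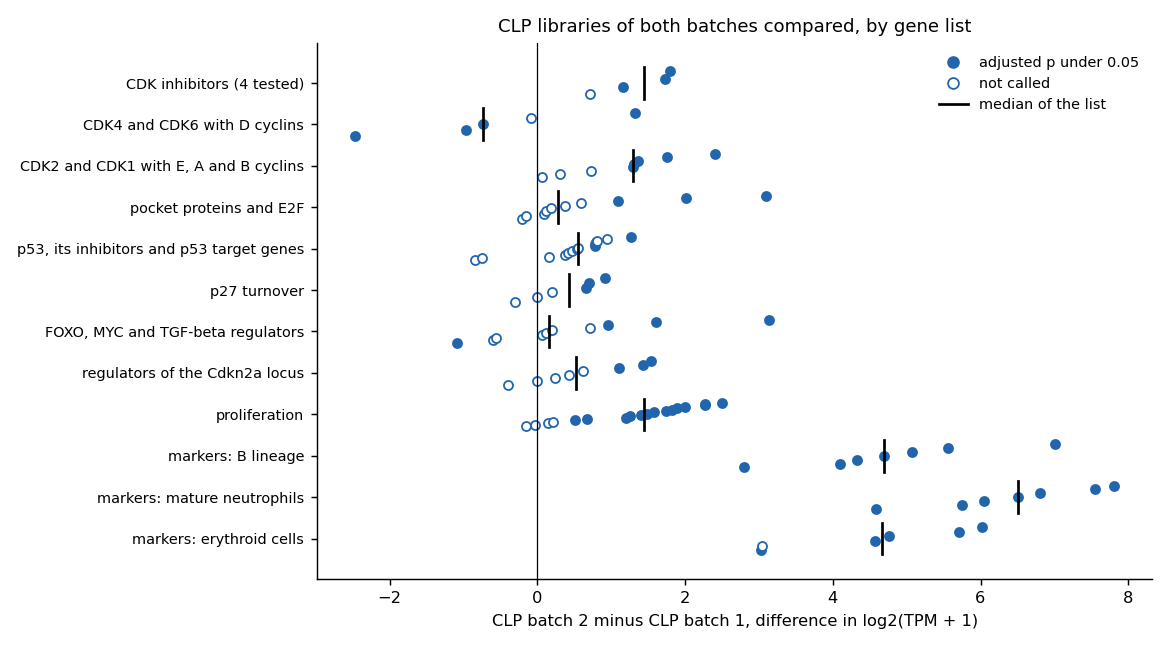
Difference between CLP batch 2 and CLP batch 1 in log2(TPM + 1) for each tested gene of the lists; filled points have an adjusted p under 0.05, open points were not called, and vertical bars are list medians. The median of the proliferation list is 1.45 and that of the list of CDK4, CDK6 and D cyclins is -0.73. Of the lists shown, the B lineage, neutrophil and erythroid marker lists lie furthest to the right. The LMPP, CLP, GMP and T and NK marker lists, with medians of -2.284, -0.567, 2.415 and 0.734, are not shown. Nor is the imprinted domain of Cdkn1c.

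The targets of the INK4 proteins are CDK4, CDK6 and the D cyclins they pair with. Of these 5 genes, Ccnd3, a D cyclin needed for the growth of lymphoid progenitors, was lower in LMPP than in CLP and higher in CLP than in GMP, and no other was called for LMPP against CLP. Ccnd3 averaged 47.0 in LMPP, 211.4 in CLP and 30.7 TPM in GMP, with differences of -1.98 for LMPP minus CLP (limma, adjusted p = 0.00093) and 2.57 for CLP minus GMP (adjusted p = 3.42e-05). Cdk6 was lower in CLP than in GMP, at 181.6 and 255.3 TPM (-0.47, adjusted p = 0.0375), and none of the 5 was called for LMPP minus GMP. Between the CLP batches, Ccnd3 was higher and Ccnd1, Ccnd2 and Cdk4 were lower in batch 2. Cdk4 averaged 282.7 TPM in batch 2 and 466.8 TPM in batch 1 (-0.73, limma adjusted p = 0.00394). Of all 12718 tested genes, 2711 were higher and 1362 lower in CLP batch 2. For LMPP minus CLP 356 were lower, and for CLP minus GMP 1773 were higher and 1267 lower.

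The targets of the CIP/KIP proteins are CDK2 and CDK1 with the E, A and B cyclins. The list of 8 genes also holds Cdc25a, which is neither a CDK nor a cyclin. Cdc25a was not called between types or between the CLP batches. For LMPP minus CLP, 2 were lower: Ccne2 at 10.14 in LMPP and 28.36 TPM in CLP (-1.28, limma adjusted p = 0.00386), and Ccne1 at 3.63 and 10.05 TPM (-1.29, adjusted p = 0.0181). For LMPP minus GMP none was called. For CLP minus GMP, 5 were higher, among them Ccna2 at 207.4 TPM in CLP and 76.33 TPM in GMP (1.19, adjusted p = 0.024) and Cdk2 at 24.43 and 17.85 TPM (0.42, adjusted p = 0.0414). Without both CLP libraries of batch 2, 1 of the 8 was called higher for CLP minus GMP. Between CLP batches, 5 were higher in batch 2. Ccnb1 led with 309.3 TPM in batch 2 and 57.78 TPM in batch 1 (2.40, limma adjusted p = 3.36e-05). Among all tested genes 2.80% were lower for LMPP minus CLP, 13.9% higher for CLP minus GMP and 21.3% higher in CLP batch 2.

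Of 10 pocket protein and E2F genes, which act downstream of the kinases, 1 was higher and 1 lower for LMPP minus CLP. For LMPP minus GMP 4 were higher and 1 lower, and for CLP minus GMP 4 were higher. Among all tested genes 10% were called for LMPP minus CLP (2.80% lower), 28.9% for LMPP minus GMP (21.3% higher) and 23.9% for CLP minus GMP (13.9% higher). Of 12718 tested genes, 920 were higher for LMPP minus CLP and 969 were lower for LMPP minus GMP. These values are the background for the counts of every list. Rbl2, which encodes the pocket protein p130 of resting cells, averaged 30.54 in LMPP, 19.63 in CLP and 19 TPM in GMP, and was higher in LMPP than in CLP (0.61, limma adjusted p = 0.0306) and than in GMP (0.66, adjusted p = 0.00798). E2f2, an activating E2F, averaged 38.3 TPM in CLP and 3.838 TPM in GMP (2.31, adjusted p = 0.00552). Its CLP values were 68.9 TPM in batch 2 and 7.715 TPM in batch 1 on average (3.1, adjusted p = 0.00135). Without both CLP libraries of batch 2, 1 of the 10 was called higher for CLP minus GMP and 7 were for LMPP minus GMP.

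Cdkn1a is a p53 target, and the p53 pathway was described by 17 genes of p53, its inhibitors and p53 targets. Of these, 14 were tested. Trp53, the gene of p53, averaged 133.9 in LMPP, 136.7 in CLP and 134.1 TPM in GMP and was not called between types. By batch it averaged 160.1 TPM in batch 2 and 107.8 TPM in batch 1 in LMPP, and 175.7 and 92.48 TPM in GMP. In CLP it averaged 173.3 and 100.1 TPM and was called higher in batch 2 (0.78, limma adjusted p = 0.00254). For LMPP minus CLP, Bax alone was lower. For LMPP minus GMP 4 were higher and 1 lower, and for CLP minus GMP 5 were higher. Among all tested genes 21.3% and 13.9% were higher in the last 2 comparisons. Lower were 2.80% for LMPP minus CLP, and 969 of 12718 for LMPP minus GMP. Trp53inp1, a p53 target, averaged 13.45 in LMPP, 20.57 in CLP and 1.34 TPM in GMP, and was higher than in GMP in LMPP (2.6, limma adjusted p = 3.23e-05) and in CLP (3.1, adjusted p = 6.82e-06). Mdm2, the p53 ubiquitin ligase and a p53 target, averaged 52.43 in LMPP, 59.11 in CLP and 32.64 TPM in GMP (0.66 for LMPP minus GMP, adjusted p = 0.025; 0.76 for CLP minus GMP, adjusted p = 0.0153). Bax, a pro-apoptotic p53 target, was lower in LMPP than in either other type, at 25.48 in LMPP, 46.26 in CLP and 48.67 TPM in GMP (-0.80 for LMPP minus CLP, adjusted p = 0.0392; -0.92 for LMPP minus GMP, adjusted p = 0.00854). Without both CLP libraries of batch 2, 2 of the 14 were called higher for CLP minus GMP. Between the CLP batches 4 of the 14 were higher in batch 2, where 21.3% of all tested genes were.

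Of 6 genes of p27 turnover, Skp2, which encodes the ubiquitin ligase part that binds p27, was lower in LMPP (21.96 TPM) than in CLP (38.44 TPM; -0.74, limma adjusted p = 0.0464). Rnf123, a subunit of the ligase that acts on p27 in the first gap phase, was higher in LMPP (21.76 TPM) than in GMP (11.36 TPM; 0.84, adjusted p = 0.0382), and none was called for CLP minus GMP. Of 10 genes of the FOXO, MYC and TGF-beta pathways, 4 were higher in LMPP than in GMP and 3 were higher in CLP than in GMP. Among all tested genes 21.3% and 13.9% were higher in these comparisons. Foxo1, a transcription factor of lymphoid development that can induce Cdkn1b, averaged 4.968 in LMPP, 42.37 in CLP and 1.797 TPM in GMP, and Foxo3, a stem cell factor of the same family, 34.07, 17.32 and 15.25 TPM. Foxo1 was lower in LMPP than in CLP (-2.11, adjusted p = 0.0453), and Foxo3 was higher (0.97, adjusted p = 0.0107). Foxo1 itself was at 73.9 TPM in CLP batch 2 and 10.84 TPM in CLP batch 1. Tgfbr2, a TGF-beta receptor, averaged 11.81 in LMPP, 8.585 in CLP and 3.212 TPM in GMP, and was called against GMP in both LMPP (1.60, adjusted p = 0.000418) and CLP (1.1, adjusted p = 0.0043).

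Of 8 regulators of the Cdkn2a locus, none was called for LMPP minus CLP, 3 were higher for LMPP minus GMP and 2 were higher for CLP minus GMP. The shares of all tested genes that were higher were 21.3% for LMPP minus GMP and 13.9% for CLP minus GMP. Bmi1, a Polycomb protein that represses the locus, averaged 21.31 in LMPP and 12.61 TPM in GMP (0.80, limma adjusted p = 0.0172). Ezh2, a Polycomb methyltransferase, averaged 313.7 TPM in CLP and 121.2 TPM in GMP (1.16, limma adjusted p = 0.0137). The CLP batches differed here: the 8 regulators summed to 666–791 TPM in CLP batch 2 and 260–347 TPM in CLP batch 1. Between the CLP batches 3 of the 8 were called higher in batch 2, where 21.3% of all tested genes were. Of 9 genes in the imprinted domain of Cdkn1c, 5 were tested. Slc22a18 averaged 2.49 in LMPP, 0.1025 in CLP and 1.145 TPM in GMP, and was higher in LMPP than in CLP (1.60, adjusted p = 0.00559) and lower in CLP than in GMP (-0.92, adjusted p = 0.0346). Cd81 and Osbpl5 of the same domain were higher in CLP than in GMP, by 0.97 (limma adjusted p = 0.0101) and 0.96 (limma adjusted p = 0.0169). The 8 domain genes found in the data summed to 314–424 TPM in CLP batch 2 and 213–251 TPM in CLP batch 1. Of the 5 tested, 2 were called higher in CLP batch 2 than in CLP batch 1. Of 18 proliferation genes, none was called for LMPP minus CLP. For LMPP minus GMP 2 were lower, where 969 of 12718 tested genes were. For CLP minus GMP 3 were higher, near the 13.9% of all tested genes. Without both CLP libraries of batch 2 none was higher for CLP minus GMP.

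The medians of the lists are set beside those of all tested genes, which were 0.17 for LMPP minus CLP, 0.24 for LMPP minus GMP and 0.09 for CLP minus GMP. In the same order of comparisons the median was 0.04, 0.43 and -0.06 for CDK4, CDK6 and the D cyclins. The list of CDK2, CDK1, the E, A and B cyclins and Cdc25a had medians of -0.72, 0.02 and 0.87. The median was -0.06, 0.55 and 0.43 for pocket proteins and E2F, 0.17, 0.39 and 0.01 for the p53 list, and -0.07, 0.22 and 0.29 for p27 turnover. It was 0.30, 0.64 and 0.34 for the FOXO, MYC and TGF-beta genes, 0.02, 0.52 and 0.54 for the regulators of the Cdkn2a locus, -0.16, 0.54 and 0.13 for the imprinted domain of Cdkn1c, and -0.45, 0.11 and 0.75 for proliferation. For LMPP minus CLP, no gene of the pocket protein, p53, p27 turnover or FOXO, MYC and TGF-beta lists was called without both CLP libraries of batch 2, a fit with fewer libraries. Rbl2 averaged 33.35 TPM in LMPP against 20.56 in CLP in batch 2, and 27.72 TPM in LMPP against 18.7 in CLP in batch 1.

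The 3 tested genes whose pattern over the 12 libraries was most like each inhibitor were found by Pearson r in log2(TPM + 1). For Cdkn1a they were Sh2b3 (r = 0.972), Cyb561a3 (r = 0.968) and Itga4 (r = 0.965). For Cdkn1b they were Pcdhgc4 (r = 0.977), Paip2b (r = 0.972) and Cep135 (r = 0.968). For Cdkn2c they were Gmfg (r = 0.959), Dlgap5 (r = 0.956) and Cdkn2d (r = 0.942), and for Cdkn2d they included Epb41l5 (r = 0.952) and Top2a (r = 0.949). Dlgap5 and Top2a, which act in mitosis and in untangling DNA, averaged 50.9 and 263 in LMPP, 98.4 and 475 in CLP and 35 and 159 TPM in GMP. Sh2b3, an adaptor that restrains cytokine receptor signalling, averaged 12 in LMPP, 18.2 in CLP and 9.63 TPM in GMP.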

How the data were processed

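Per the file headers and the labels, the table holds TPM values made by the authors for 38924 Ensembl gene IDs, with column totals of 999999.45 to 1000000.54. Per the submitters' processing notes the build was mm10 and the tools included edgeR 3.10.0, RSEM 1.2.12 and Bowtie2 2.2.0, without roles or settings. RSEM splits reads between like transcripts by estimated shares, so values of genes with near copies are uncertain, and the sources used here do not say whether strand was used. TPM keeps no depth, so no counting interval can be given, and a 0 is described only as listed at 0. Another 17 columns match no sample by name and were not used.

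Symbols and coordinates came from GENCODE M21 (37607 IDs matched) and promoter sequences from RefSeq GRCm38.p6 (6 of 7 inhibitors matched, 9 windows). No other ID of the table overlaps an inhibitor gene. The 12718 genes that reached 1 TPM in 4 or more libraries were fitted on log2(TPM + 1), which understates changes of low genes, with limma 3.58.1 in R 4.3.3 by type and batch (8 residual degrees of freedom). A fit by type and batch cell means (6 residual degrees of freedom) gave the batch interactions and the CLP batches. Tests are two-sided, adjusted by Benjamini-Hochberg over all tested genes, and called under 0.05. Single-batch fits kept genes that reached 1 TPM in 2 or more libraries. The fit was tested on simulated data.

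All 7 inhibitors are named. The 3 most alike genes per inhibitor and up to 4 called genes per list and comparison could be named; 1 of the alike genes is not reported here. The members and lists were chosen with earlier results of these data known. Alternatives were another pseudocount, no filter, other scalings, no batch term, the replicate number within batch as a block, single batches and leaving out libraries.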

Additional observations from a re-analysis of the deposited data

Results flagged for a closer look

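Cdkn1c was at 0.07 TPM in GMP batch 1 replicate 2 and listed at 0 in the other 3 GMP libraries, and Cdkn2b was at 0.13 TPM in LMPP batch 2 replicate 1 and listed at 0 in the other 3 LMPP libraries. In each case a single library held the only value above 0 of its type, and so stood apart by Dixon's criterion at 95%. Of 17 sets of 4 libraries examined 2 stood apart, and both values are near 0. A set with a single value above 0 always stands apart by this criterion, so the usual chance share of 5% does not apply to these sets.

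The difference between LMPP and CLP in Cdkn2c differed between the batches by -2.235 on the log2 scale (limma interaction, adjusted p = 0.0309), and the difference between CLP and GMP in Cdkn2d differed by 2.129 (adjusted p = 0.042). These were 2 of 12 such tests on the inhibitors. In both, the CLP libraries of batch 2 were above those of batch 1: Cdkn2c was at 56.14 and 75.47 TPM in batch 2 and 20.79 and 15.63 TPM in batch 1, and Cdkn2d at 67.54 and 58.60 TPM in batch 2 and 23.33 and 14.38 TPM in batch 1.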

How the results depend on the processing

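Of the differences of the 4 tested inhibitors under the alternatives, 498 kept direction and side of the threshold, 48 lost the call, 14 gained it and 16 reversed. Cdkn1a kept its call for LMPP minus CLP (adjusted p 0.000696 to 0.0247) and for CLP minus GMP (8.91e-06 to 0.00244) in all 24 alternatives run. For LMPP minus GMP its call was lost without the batch term (adjusted p = 0.103) and in batch 1 alone (0.0707). The ranges of adjusted p were 0.000323 to 0.0818 for Cdkn1b in LMPP minus GMP, 0.00414 to 0.0887 for Cdkn1b in CLP minus GMP, 0.0159 to 0.634 for Cdkn2c and 0.00336 to 0.206 for Cdkn2d in CLP minus GMP. Cdkn2c lost this call in 15 of 24 alternatives, among them 8 refits without 1 library: LMPP batch 1 replicate 1, batch 1 replicate 2 and batch 2 replicate 1; CLP batch 2 replicate 1 and replicate 2; and GMP batch 1 replicate 2, batch 2 replicate 1 and batch 2 replicate 2. Cdkn2d in LMPP minus GMP was called in 6 alternatives (0.00717 to 0.188).

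The number of inhibitors called for LMPP minus CLP was 1, and 2 in batch 2 alone. For LMPP minus GMP it was 2, and 4 with TPM rescaled without mitochondrial and ribosomal RNA, which added Cdkn2d and Cdkn1c. Cdkn1c then passed the filter only through libraries other than GMP. Without the batch term the number was 1, as it was in batch 2 alone. For CLP minus GMP it was 4, against 1 without both CLP libraries of batch 2, 1 in batch 1 alone, and 2 to 4 when 1 library was left out, with 2 without GMP batch 2 replicate 1. The batch interaction of LMPP minus CLP was called for 1 gene, for 0 with no filter, median-ratio scaling or quantile normalization, for 2 without LMPP batch 2 replicate 1 and CLP batch 2 replicate 1 together, and for 0 to 2 when 1 library was left out; the adjusted p of Cdkn2c was 0.00338 to 0.111. That of CLP minus GMP was called for 1 gene, for 0 with no filter or quantile normalization, for 2 with rescaled TPM or without those libraries together, and for 0 to 2 when 1 library was left out; for Cdkn2d the adjusted p was 0.00671 to 0.148. CLP batch 2 minus batch 1 was called for 3 genes, and for 1 to 3 when 1 library was left out, with 1 without CLP batch 1 replicate 2. The causes were not tested.

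For LMPP minus CLP, Cdkn2c was 0.34 and Cdkn2d 0.35 in batch 1 alone, Cdkn1b was -0.27 in batch 2 alone, and Cdkn2c was 0.30 and Cdkn2d 0.44 when CLP batch 2 was left out. The LMPP minus GMP interaction, called for none, reversed to 0.035 for Cdkn2c with median-ratio scaling, to 0.071 for Cdkn1b and -0.252 for Cdkn2d without LMPP batch 2 replicate 1 (also together with CLP batch 2 replicate 1), to -0.08 for Cdkn1a and 0.45 for Cdkn2c without LMPP batch 2 replicate 3, to -0.13 for Cdkn1a without GMP batch 1 replicate 1, and to 0.19 and 0.03 for Cdkn2c without GMP batch 1 replicate 2 and batch 2 replicate 2. When 1 library was left out it ranged up to 0.624 for Cdkn1a, from -0.674 for Cdkn1b, from -0.752 for Cdkn2c and up to 0.976 for Cdkn2d. That of CLP minus GMP for Cdkn1a ranged from -0.733 to 0.022, reversing without GMP batch 1 replicate 2.

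Batch is a block given by the titles and is in every main test. Replicate numbers were not tied by the labels to a shared animal or day. Within type and batch, deviations of libraries of the same number correlated between -0.106 and 0.169, and of other numbers between -0.169 and 0.169. With 2 libraries per type and batch the deviations mirror each other, so these correlations are equal in size by construction. As deviations from type means, same-number pairs of a batch correlated at 0.044 to 0.541 and other-number pairs at 0.076 to 0.375. The highest was LMPP with CLP batch 2 replicate 1. With the replicate number as a block, the inhibitors called were 1, 2 and 4 for LMPP minus CLP, LMPP minus GMP and CLP minus GMP, and Cdkn1a was at -2.02, 0.88 and 2.89. Over all genes, the block called 155 higher and 57 lower for LMPP minus CLP, against 920 and 356 without it; leaving out the batch term called 484 and 125, and fitting only these 2 types 387 and 172. The share of calls that were higher was 72.1%, 53% and 53.4% for LMPP minus CLP, 73.6%, 54.5% and 48.3% for LMPP minus GMP, and 58.3%, 50.5% and 45.6% for CLP minus GMP with TPM as deposited, median-ratio scaling and quantile normalization. The median of all genes for LMPP minus GMP was 0.24, 0.08 and -0.03 in that order. Unknown depth limits what can be said of Cdkn1c, Cdkn2a and Cdkn2b.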
